A study of Saccharomyces cerevisiae with 6 samples.

Results

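The genes described here encode the DNA replication machinery of budding yeast: the large subunit of ribonucleotide reductase, the origin recognition complex, the MCM helicase and the factors that load and fire it, the GINS complex, the replicative polymerases, the single-strand binding protein RPA, the sliding clamp with its loader, and the enzymes that finish Okazaki fragments. They were chosen by name as a list of 43 genes, with earlier results of these data known. All 43 were measured, each by 1 probe set, among 5449 genes tested on the array. Transcript levels were compared between 3 arrays of the nab2-1 mutant and 3 arrays of the wild type. NAB2 encodes an essential nuclear poly(A)-binding protein that acts in mRNA export.

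Per the labels, the wild type was strain W303-1A. The mutant was a W303-1A derivative in which the chromosomal NAB2 gene was deleted with HIS3 and the nab2-1 allele was carried on a centromeric LEU2 plasmid. Both were grown exponentially in YPD, a rich medium, at 30 °C. Whether the wild type carried an empty plasmid, and whether the 3 samples of a group were separate cultures, is not stated in the labels. The p-values therefore measure the spread between the arrays of a group, part or all of which may be technical variation. NAB2 itself had log2 signals of 13.84, 13.60 and 13.70 in nab2-1 and 12.43, 12.36 and 12.29 in the wild type, and where its probes lie relative to the lesion is not given. W303-1A is known as a MATa strain. The 4 MATalpha-specific genes had log2 signals from 12.15 to 14.15 over the 6 arrays, and the 7 MATa-specific genes from 6.37 to 10.16, against 4.27 for the 95th percentile of probe sets of another yeast species. MATalpha-specific genes are not transcribed in MATa cells. Only 51 of the 5449 tested genes had a mean under that level, so lying above it does not show transcription. By mean signal the MATalpha-specific genes stood at the 89.8 to 98.6 percentiles of tested genes and the MATa-specific genes at the 5.1 to 31.0. On all 6 arrays every MATalpha-specific signal lay above every MATa-specific one, the reverse of what the MATa type of W303-1A would give. The mating type of the strains was not tested. All 7 MATa-specific genes were also higher in nab2-1, and their part in the results below was not tested.

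DNA replication in yeast begins at origins marked by the origin recognition complex. In G1 phase this complex, with Cdc6 and Cdt1, loads the MCM helicase onto DNA; in S phase Cdc45 and GINS join the helicase, and polymerases alpha, epsilon and delta copy the strands. Many of these genes, RNR1 among them, are transcribed in a burst at the G1 to S transition under the factors MBF and SBF, while most ORC genes vary less through the cycle. In RNA from a whole culture, a smaller share of cells in S phase and less of an RNA per cell cannot be told apart.

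Most DNA replication genes were lower in nab2-1, and those on chromosomes XI and XVI were higher. Of the 43 genes, 24 were lower and 7 higher past an adjusted p of 0.05 (limma with Benjamini-Hochberg adjustment over all tested genes), against 37.2% lower and 30.2% higher among all 5449 genes. The median log2 difference, nab2-1 minus wild type, was -0.25 for the DNA replication genes and -0.05 for all tested genes. The changes were small: only CDC6 changed by 2-fold or more. In 35 of the 43 genes the 3 nab2-1 values lay all above or all below the 3 wild type values, where 73.9% of all tested genes did so. When the arrays were scaled to 36 control probe sets for spiked bacterial RNA, the median of all tested genes moved from -0.05 to 0.22 and that of the DNA replication genes to 0.03. The difference between these medians, -0.20, is the same on either scale by construction, since that scaling adds 1 constant to every difference. With that scaling 9 of the DNA replication genes were higher and 7 lower, the latter being RNR1, MCM3, MCM7, CDC6, MCM10, POL12 and RFC1, while 2133 of all genes were higher and 622 lower (77.4% of calls higher, against 44.8% as deposited). The scaling also gave every gene an SE of 0.15, against a median of 0.058 for the DNA replication genes as deposited. The mean of the control probe sets itself ran from 7.22 to 7.59 over the wild type arrays. On every nab2-1 array it lay below these, from 7.06 to 7.16. The lost calls therefore go with lower precision as well as with the added constant.

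**Figure D1:**
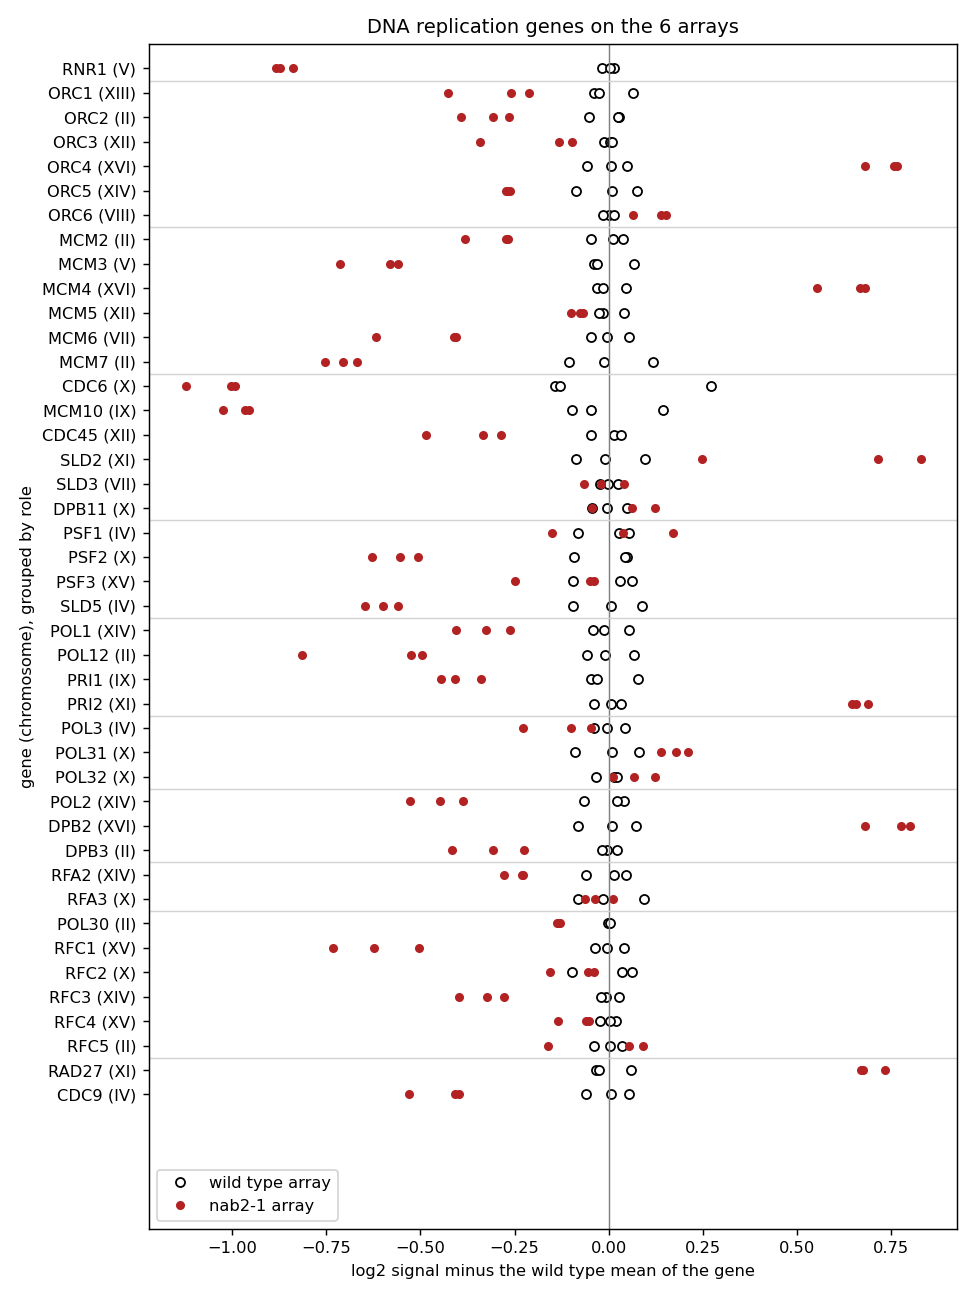
Log2 signal of each DNA replication gene on each of the 6 arrays (x axis), as the difference from the wild type mean of that gene; genes (y axis, chromosome in parentheses) are grouped by role, open circles are wild type arrays and filled circles nab2-1 arrays. The nab2-1 points lie to the right, near 0.60 to 0.75 on average, for the 6 genes on XI and XVI, and mostly to the left for the others, as far as -1.04 on average for CDC6.

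The direction of the differences went with the chromosome. All 6 DNA replication genes on chromosomes XI and XVI were higher in nab2-1, by 0.60 to 0.75, whereas the other 37 ranged from -1.04 to 0.18. On these chromosomes the median tested gene was itself higher, by 0.77 on XI and 0.75 on XVI, while on the 11 other chromosomes that hold DNA replication genes the median lay between -0.14 and -0.08. None of the 43 genes lies on chromosome I, the other chromosome with a raised median (0.73). Outside chromosomes I, XI and XVI, 24 of 37 DNA replication genes (64.9%) were lower and 1 (2.70%) higher, against 43.2% lower and 19.8% higher among the 4642 tested genes there. The median of the 37 was -0.31 and that of the 4642 was -0.11.

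To set each gene against its own chromosome, the median signal of the tested genes on that chromosome was subtracted on every array and the test repeated. The subtracted difference of chromosome medians was 0.78 on XI and 0.88 on XVI, and from -0.22 to -0.08 on the 11 other chromosomes. On this scale 21 DNA replication genes were lower and 6 higher, against 30.6% lower and 31.4% higher among all tested genes, with medians of -0.16 and 0.01. The 6 higher genes, ORC6, SLD3, DPB11, POL31, POL32 and RFA3, lie on chromosomes VIII, VII and X, where the subtracted values were the lowest (-0.18, -0.19 and -0.22). On this scale the median tested gene of these chromosomes was itself at 0.07, 0.09 and 0.09. The groups did not overlap for 30 of the 43 genes, near the 69.1% of all tested genes. None of the 6 genes on XI and XVI was then higher: they ranged from -0.25 to -0.09, and MCM4 was the one of them past the threshold. The median tested gene was at -0.01 on XI and -0.13 on XVI, so values near these are typical of the chromosome. Of the 807 tested genes on I, XI and XVI, 301 were called lower and 203 higher on this scale. Where the chromosome median was instead taken over gene-centred values (each gene minus its own mean, an alternative added after the data were seen), 19 DNA replication genes were lower and 4 higher, against 31.5% and 30.1% of all tested genes. ORC1 and MCM4 then lost their calls as lower, and SLD3 and RFA3 theirs as higher. The 6 genes on XI and XVI then ranged from -0.16 to 0.01, and none passed.

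**Figure D2:**
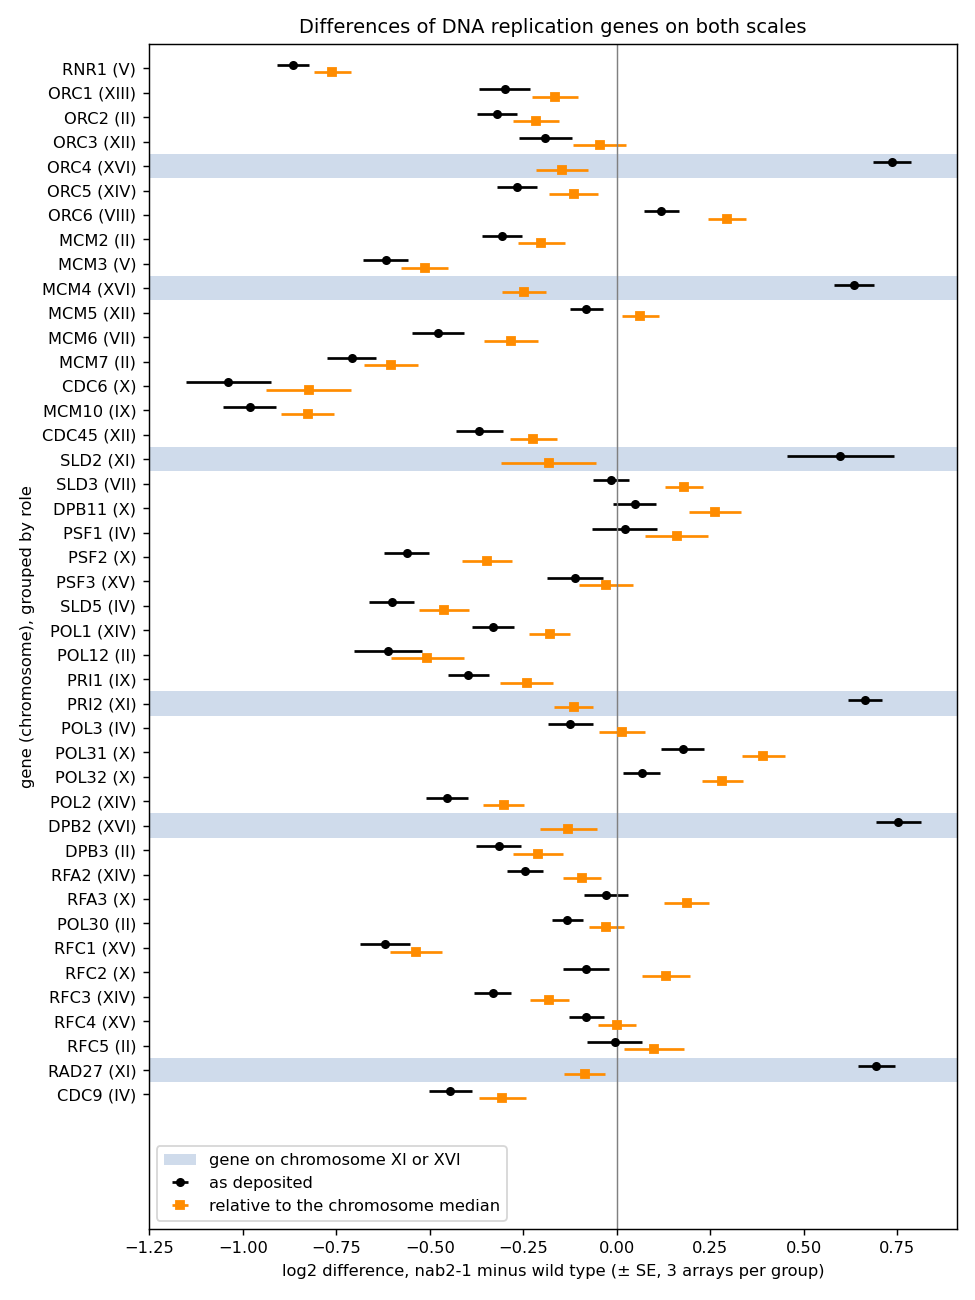
Log2 difference of each DNA replication gene, nab2-1 minus wild type (x axis, ± SE, 3 arrays per group), as deposited (black circles) and relative to the chromosome median (orange squares); genes are on the y axis and shaded rows mark chromosomes XI and XVI. The 6 shaded genes lie at 0.60 to 0.75 as deposited and at -0.25 to -0.09 relative to the chromosome, and the unshaded genes lie further right relative to the chromosome, for example DPB11 at 0.26 against 0.05.

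RNR1, which encodes the large subunit of ribonucleotide reductase and so helps to supply deoxynucleotides, was among the clearest falls. Its log2 signals were 11.36, 11.39 and 11.35 in nab2-1 and 12.21, 12.24 and 12.23 in the wild type. The arrays of each group nearly coincided and the groups lay far apart. RNR1 fell by 0.86 ± 0.04 (SE, n = 3 arrays per group), or 1.82-fold (limma adjusted p = 3.6e-06), and by 0.76 ± 0.05 relative to chromosome V (adjusted p = 9.9e-06).

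The other subunit genes of the enzyme, taken from a list of 30 further replication genes, moved the opposite way. RNR2 and RNR4, which encode the small subunit, had differences of 0.17 ± 0.05 (limma adjusted p = 0.011) and 0.23 ± 0.05 (adjusted p = 0.0047). RNR3, which encodes an alternative large subunit induced by DNA damage, had signals of 8.99, 9.45 and 9.31 in nab2-1 and 8.83, 8.91 and 8.71 in the wild type, and rose by 0.43 ± 0.12 (adjusted p = 0.013). All 3 genes rose on each scale, with chromosome-relative differences of 0.39 for RNR2, 0.59 for RNR3 and 0.42 for RNR4. RNR2 and RNR4 were named after their values were seen.

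The 6 origin recognition genes, whose products mark origins and load the helicase, were modestly lower, apart from ORC4 and ORC6. ORC2 had signals of 10.36, 10.49 and 10.45 in nab2-1 and 10.70, 10.78 and 10.78 in the wild type and fell by 0.32 ± 0.05 (limma adjusted p = 0.0012). ORC1, the gene of an ATPase subunit, fell by 0.30, ORC5 by 0.27 and ORC3 by 0.19. The ORC3 fall was near the threshold (limma adjusted p = 0.044). Its nab2-1 replicate 1 was lowest, at 9.41 against 9.62 and 9.65 in the other nab2-1 arrays. Without that array the difference was -0.12 (adjusted p = 0.058). The call was also lost when any other array except nab2-1 replicate 3 was left out (adjusted p from 0.055 to 0.10). ORC4, on chromosome XVI, had signals of 10.23, 10.31 and 10.30 in nab2-1 and 9.60, 9.49 and 9.55 in the wild type. Its rise of 0.74 ± 0.05 (limma adjusted p = 1.5e-05) became -0.15 ± 0.07 (adjusted p = 0.097) relative to that chromosome. With gene-centred medians it was -0.01, and against the 20 nearest genes, a centre also added after the data were seen, 0.03, so its direction was not settled.

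ORC6, the gene of the smallest subunit, was the one member of the complex above its chromosome. It had signals of 8.87, 8.94 and 8.96 in nab2-1 and 8.80, 8.79 and 8.82 in the wild type. The groups did not overlap but the difference of 0.12 ± 0.05 missed the threshold (limma adjusted p = 0.053). Relative to chromosome VIII it was 0.29 ± 0.05 (adjusted p = 0.0015). On that scale ORC2 and ORC1 were lower, at -0.22 and -0.16, and the other 3 genes did not pass. Against the nearest genes ORC2 and ORC1 were at -0.08 and -0.12 (limma adjusted p = 0.26 and 0.16), so no ORC gene was then called lower.

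Of the 6 MCM genes, which encode the ring-shaped core of the replicative helicase, 4 fell, MCM4 rose and MCM5 did not pass. MCM7 fell most, with signals of 10.03, 10.12 and 10.08 in nab2-1 and 10.78, 10.91 and 10.68 in the wild type, and it fell by 0.71 ± 0.07 or 1.64-fold (limma adjusted p = 5.7e-05). MCM3 fell by 0.62 ± 0.06, MCM6 by 0.48 ± 0.07 and MCM2 by 0.31 ± 0.05. These 4 genes lie on chromosomes II, V and VII and were also lower relative to them, by -0.60, -0.51, -0.28 and -0.20 in the same order.

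MCM4, on chromosome XVI, was the one DNA replication gene called in opposite directions on the scales. Its signals were 11.25, 11.38 and 11.36 in nab2-1 and 10.67, 10.74 and 10.68 in the wild type, and the gene rose by 0.63 ± 0.05 (limma adjusted p = 3.6e-05). After subtraction of the chromosome median the 3 nab2-1 values, 0.20, 0.36 and 0.33, lay below the wild type values of 0.54, 0.53 and 0.57. That difference of -0.25 ± 0.06 passed (adjusted p = 0.0071), but with gene-centred chromosome medians it was -0.11 (adjusted p = 0.10). Against the nearest genes MCM4 was lower, at -0.24 (limma adjusted p = 0.015). MCM5 had signals of 10.30, 10.27 and 10.30 in nab2-1 and 10.41, 10.36 and 10.35 in the wild type, a difference of -0.08 ± 0.05 (limma adjusted p = 0.14). Over the 6 subunit genes the differences had an SD of 0.49 as deposited and 0.24 relative to their chromosomes.

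The 2 largest falls of the list were those of CDC6 and MCM10. Both genes were dim: by mean signal they stood at the 16.9 and 7.16 percentiles of tested genes. CDC6 encodes the ATPase that loads the MCM ring together with the origin recognition complex. Its signals were 8.25, 8.26 and 8.13 in nab2-1 and 9.11, 9.53 and 9.13 in the wild type, and it fell by 1.04 ± 0.11 or 2.06-fold (limma adjusted p = 0.00013). MCM10, whose product is needed to activate the loaded helicase, had signals of 6.89, 6.88 and 6.82 in nab2-1 and 7.74, 7.99 and 7.80 in the wild type, and it fell by 0.98 ± 0.07 or 1.98-fold (adjusted p = 1.7e-05). Both were about equally low relative to their chromosomes, at -0.82 and -0.83. Wild type replicate 2 was the highest array for both genes, and the groups stayed well apart without it.

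The firing factors did not move together. CDC45, whose product joins the helicase at firing, fell by 0.37 ± 0.06 (limma adjusted p = 0.0015), and by 0.22 relative to chromosome XII (adjusted p = 0.015). SLD2, on chromosome XI, had signals of 8.66, 9.24 and 9.13 in nab2-1 and 8.33, 8.51 and 8.40 in the wild type. The nab2-1 arrays were spread (SD 0.31), and the rise of 0.60 ± 0.14 (limma adjusted p = 0.0077) became -0.18 ± 0.13 (adjusted p = 0.24) relative to the chromosome. DPB11, which bridges phosphorylated Sld2 and Sld3 at origins, had overlapping groups, at 9.39, 9.50 and 9.56 in nab2-1 and 9.43, 9.39 and 9.48 in the wild type. Relative to chromosome X, DPB11 was higher by 0.26 (limma adjusted p = 0.012) and SLD3 relative to chromosome VII by 0.18 (adjusted p = 0.016), but SLD3 did not pass with gene-centred medians (0.10, adjusted p = 0.10).

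The 4 GINS genes, whose products form a ring-like complex that joins the helicase, split evenly. SLD5 had signals of 9.07, 9.03 and 9.11 in nab2-1 and 9.76, 9.68 and 9.58 in the wild type, and it fell by 0.60 ± 0.06 (limma adjusted p = 8.4e-05). PSF2 fell by 0.56 ± 0.06 (adjusted p = 0.00011). Both were lower on the chromosome-relative scale as well, by -0.46 and -0.35. PSF1, at 9.91, 10.10 and 10.23 in nab2-1 and 10.11, 9.98 and 10.09 in the wild type, and PSF3 had overlapping groups, with differences of 0.02 ± 0.09 and -0.11 ± 0.08 that did not pass. Against the nearest genes PSF1 passed as higher, at 0.21 (limma adjusted p = 0.045).

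Polymerase alpha-primase, which lays down the primers, was lower in 3 of its 4 genes. POL12, the gene of its second subunit, had signals of 9.31, 9.60 and 9.63 in nab2-1 and 10.12, 10.07 and 10.19 in the wild type. It fell by 0.61 ± 0.09 (limma adjusted p = 0.00067), with nab2-1 replicate 1 lowest. The primase gene PRI1 fell by 0.40 ± 0.06 and the catalytic subunit gene POL1 by 0.33 ± 0.06. PRI2, the gene of the large primase subunit, lies on chromosome XI and had signals of 10.85, 10.83 and 10.88 in nab2-1 and 10.15, 10.19 and 10.22 in the wild type. Its rise of 0.66 ± 0.05 (limma adjusted p = 1.3e-05) became -0.12 ± 0.05 (adjusted p = 0.084) relative to the chromosome, where POL12, PRI1 and POL1 were at -0.51, -0.24 and -0.18. Against the nearest genes PRI2 was at 0.12, so its direction turned too.

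None of the 3 genes of polymerase delta, which copies mainly the lagging strand, was called lower. POL3, its catalytic subunit gene, had signals of 9.84, 10.02 and 9.96 in nab2-1 and 10.02, 10.06 and 10.11 in the wild type, a difference of -0.12 ± 0.06 (limma adjusted p = 0.10). POL31, the gene of its second subunit, had signals of 9.53, 9.60 and 9.57 in nab2-1 and 9.47, 9.30 and 9.40 in the wild type. It was the one DNA replication gene outside XI and XVI called higher as deposited, by 0.18 ± 0.06 (adjusted p = 0.027). That call was lost without nab2-1 replicate 2 or 3 or wild type replicate 2 or 3 (adjusted p from 0.060 to 0.083). Relative to chromosome X, POL31 was higher by 0.39 ± 0.06 (adjusted p = 0.00063) and POL32, whose product aids processivity, by 0.28 ± 0.06 (adjusted p = 0.0027).

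Polymerase epsilon, which copies mainly the leading strand, had subunit genes in both directions. POL2, its catalytic subunit gene, had signals of 9.59, 9.73 and 9.67 in nab2-1 and 10.16, 10.05 and 10.14 in the wild type and fell by 0.45 ± 0.06 (limma adjusted p = 0.00026). DPB3 fell by 0.32 ± 0.06. DPB2, an essential subunit gene on chromosome XVI, had signals of 10.61, 10.49 and 10.59 in nab2-1 and 9.82, 9.73 and 9.88 in the wild type, and its rise of 0.75 ± 0.06 (limma adjusted p = 2.6e-05) was the largest of the 43 genes. Relative to the chromosomes POL2 and DPB3 were at -0.30 and -0.21, and DPB2 at -0.13 (adjusted p = 0.17). The direction of DPB2 turned with the centre, to 0.01 with gene-centred medians and 0.02 against the nearest genes. DPB4, the remaining subunit gene, named after its values were seen, fell by 0.31 ± 0.09 (adjusted p = 0.018) and did not pass relative to its chromosome, at -0.17 (adjusted p = 0.14).

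RPA coats the single strands behind the helicase. RFA2 had signals of 11.04, 11.09 and 11.09 in nab2-1 and 11.34, 11.26 and 11.37 in the wild type. It fell by 0.25 ± 0.05 (limma adjusted p = 0.0030), and the difference was -0.09 relative to its chromosome (adjusted p = 0.14). RFA3 had overlapping groups, at 11.08, 11.10 and 11.15 in nab2-1 and 11.23, 11.06 and 11.12 in the wild type. It was at 0.19 relative to chromosome X (limma adjusted p = 0.028) but at 0.12 (adjusted p = 0.12) with gene-centred medians. Against the nearest genes RFA3 was higher, at 0.39 (adjusted p = 0.0066). RFA1, the large subunit gene, is not on the list and was named after its values were seen. It lies on chromosome I, and its rise of 0.79 ± 0.05 (adjusted p = 8.1e-06) was 0.19 (adjusted p = 0.049) relative to that chromosome and 0.06 (adjusted p = 0.46) with gene-centred medians.

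The clamp loader opens and places the ring-shaped clamp, PCNA, which tethers the polymerases. RFC1, the gene of its large subunit, had signals of 9.65, 9.75 and 9.88 in nab2-1 and 10.42, 10.34 and 10.37 in the wild type and fell by 0.62 ± 0.07 or 1.54-fold (limma adjusted p = 0.00012). RFC3 fell by 0.33 ± 0.05. The small subunit genes RFC2, RFC4 and RFC5 did not pass on either scale. RFC2 had signals of 10.71, 10.81 and 10.83 in nab2-1 and 10.93, 10.90 and 10.77 in the wild type, and RFC5 10.79, 11.00 and 11.04 in nab2-1 and 10.95, 10.91 and 10.98 in the wild type.

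POL30, the PCNA gene, had signals of 12.06 on each nab2-1 array and 12.19, 12.19 and 12.20 in the wild type. The arrays of a group nearly coincided, and the gene fell by 0.13 ± 0.04 (limma adjusted p = 0.023), but the difference was -0.03 (adjusted p = 0.63) relative to chromosome II. The call was also lost when any array except nab2-1 replicate 1 was left out (adjusted p from 0.054 to 0.067). POL30 and RFC5 are next to each other in the order of tested genes on chromosome II, as are POL2 and ORC5 on chromosome XIV. The first pair had differences of -0.13 and -0.01 and the second of -0.45 and -0.27.

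The 2 genes of Okazaki fragment processing also went in both directions. CDC9, the DNA ligase gene, had signals of 9.25, 9.24 and 9.12 in nab2-1 and 9.65, 9.70 and 9.59 in the wild type and fell by 0.45 ± 0.06 (limma adjusted p = 0.00031). It was also lower relative to chromosome IV, at -0.31. RAD27, the flap endonuclease gene on chromosome XI, had signals of 10.90, 10.96 and 10.89 in nab2-1 and 10.28, 10.19 and 10.20 in the wild type. Its rise of 0.69 ± 0.05 (adjusted p = 1.6e-05) became -0.09 ± 0.05 (adjusted p = 0.20) relative to the chromosome.

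**Figure D3:**
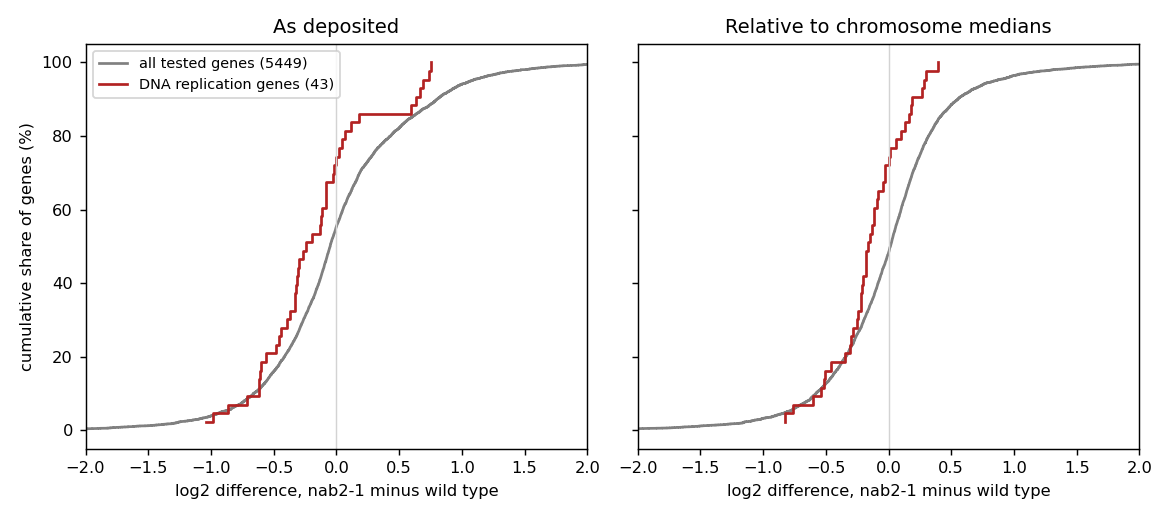
Cumulative share of genes (y axis, %) by log2 difference, nab2-1 minus wild type (x axis, drawn from -2 to 2, so that larger changes of other genes fall outside), for the 43 DNA replication genes and all 5449 tested genes, as deposited (left) and relative to chromosome medians (right). The median of the DNA replication genes lies to the left of that of all genes in both panels, at -0.25 against -0.05 and at -0.16 against 0.01.

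Few of the DNA replication genes changed by 2-fold or more, and few would at the share of all tested genes. As deposited 324 of the 5449 tested genes were higher by that much and 216 lower, and 0 and 1 of the 43 DNA replication genes. Of the 324, 198 lie on chromosomes I, XI and XVI. On the other chromosomes 126 of 4642 tested genes were higher by 2-fold or more and 206 lower, and 0 and 1 of the 37 DNA replication genes there. Counts this small do not set the list apart. Relative to chromosomes 194 of all tested genes were higher and 180 lower by 2-fold or more, and 0 of the DNA replication genes in either direction. Their differences had an SD of 0.45 as deposited and 0.29 relative to chromosomes, against 0.64 and 0.55 for all tested genes. CDC6, MCM10 and RNR1 stood at the 3.56, 4.17 and 5.54 percentiles of all differences. At the other end POL31, ORC6 and POL32 had the highest chromosome-relative differences, at the 84.2, 78.3 and 77.6 percentiles.

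Within nab2-1, replicate 1 was the lowest array for 30 of the 43 genes (69.8%), against 42.7% of all tested genes. The median signal of the DNA replication genes was 9.84 there and 10.02 and 9.98 on the other nab2-1 arrays, and 10.06 to 10.11 in the wild type. Without that array 23 of the 43 genes were lower and 8 higher as deposited, and 19 lower and 9 higher relative to chromosomes. On the latter scale ORC1 and MCM2 lost their calls as lower, and PSF1, RFC2 and RFC5 passed as higher. Over the 6 fits that each left out 1 array, 28 of the 31 calls as deposited and 17 of the 27 calls relative to chromosomes passed every time. The 17 were RNR1, MCM3, MCM4, MCM6, MCM7, CDC6, MCM10, PSF2, SLD5, POL12, POL2, RFC1 and CDC9, lower, and ORC6, DPB11, POL31 and POL32, higher. The other 10, ORC1, ORC2, MCM2, CDC45, SLD3, POL1, PRI1, DPB3, RFA3 and RFC3, each missed the threshold without at least 1 array, with adjusted p from 0.050 to 0.13. Of these, ORC1 missed it without any array except nab2-1 replicate 3, and SLD3 and CDC45 only without nab2-1 replicate 3 and wild type replicate 3, respectively.

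The 30 further replication genes showed no common direction, with 10 higher and 11 lower as deposited and 12 higher and 9 lower relative to chromosomes (medians -0.04 and 0.04). Of all tested genes 30.2% were higher and 37.2% lower as deposited, and 31.4% and 30.6% relative to chromosomes. DNA2, a helicase-nuclease gene of Okazaki fragment processing, had the largest chromosome-relative rise, 0.71 ± 0.06 (limma adjusted p = 3.1e-05), and CDC7, the kinase that triggers origin firing, was higher by 0.58 ± 0.05 (adjusted p = 3.3e-05). CTF18, of an alternative clamp loader that acts in sister chromatid cohesion, fell most, by 0.69 ± 0.10 (adjusted p = 0.0007). These 3 genes kept their direction and call as deposited and when scaled to the spiked controls.

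Of 39 measured regulators and genes of the G1 to S transition, 16 were lower and 10 higher as deposited and 14 lower and 9 higher relative to chromosomes, with medians of -0.04 and -0.02. Of all tested genes 37.2% were lower and 30.2% higher as deposited, and 30.6% and 31.4% relative to chromosomes. The largest falls of the list were those of CLB6, NRM1 and CLN1. CLB6, an S phase cyclin gene, had signals of 8.16, 8.12 and 8.01 in nab2-1 and 9.67, 9.90 and 9.80 in the wild type, and it fell by 1.69 ± 0.07 (limma adjusted p = 2.2e-06). NRM1, the gene of an MBF co-repressor that is itself an MBF target, fell by 1.48 ± 0.07 and the G1 cyclin gene CLN1 by 1.00 ± 0.07.

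HUG1, which encodes an inhibitor of ribonucleotide reductase and is induced by DNA damage, had the largest rise of this list. Its signals were 9.28, 9.26 and 9.44 in nab2-1 and 7.66, 7.55 and 7.87 in the wild type, and it rose by 1.63 ± 0.09 (limma adjusted p = 5.7e-06). Relative to chromosomes CLB6 was at -1.50, NRM1 at -1.32, CLN1 at -0.87 and HUG1 at 1.77, so these 4 genes kept their directions.

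**Figure D4:**
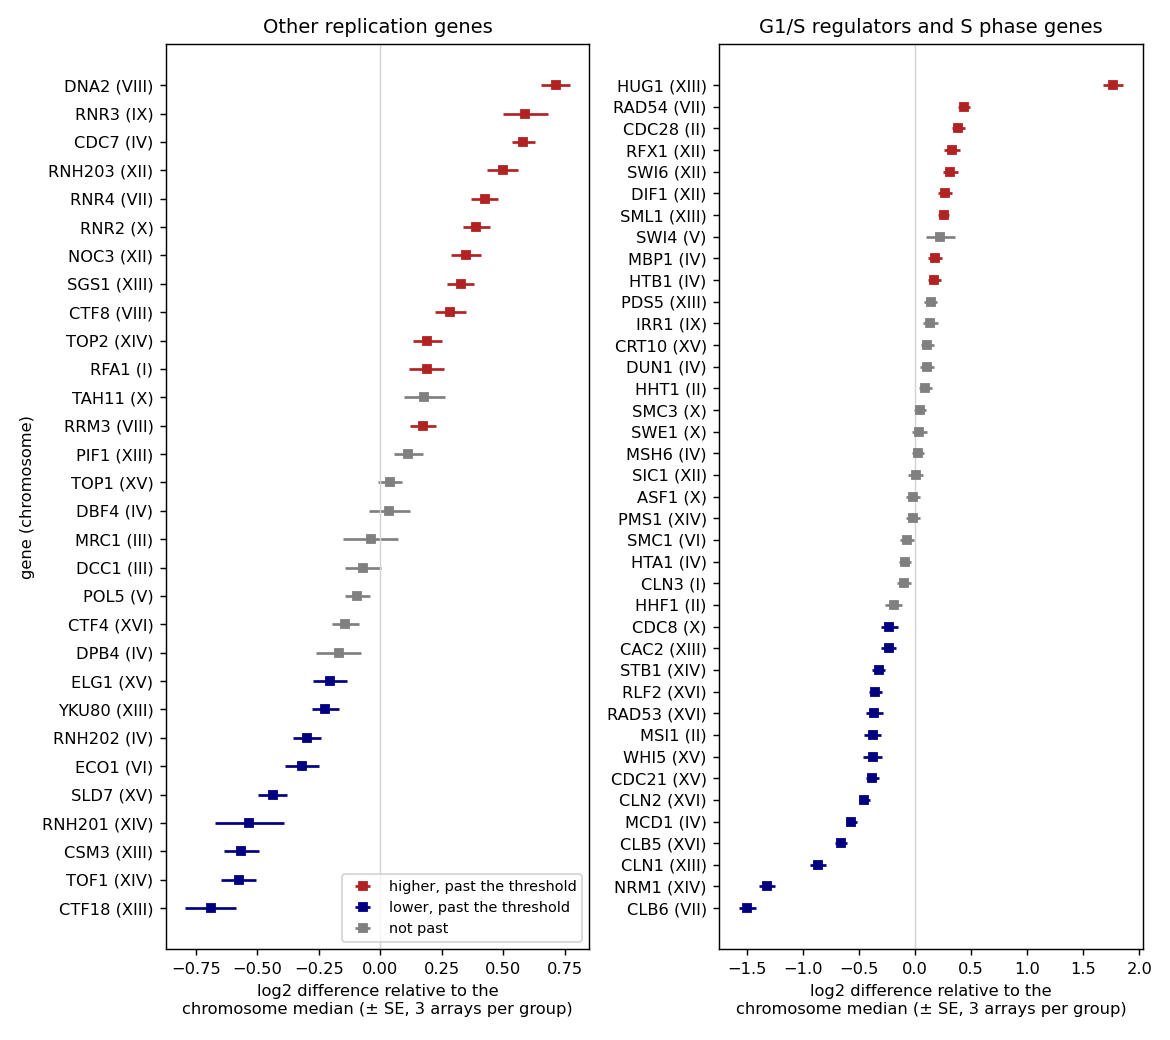
Log2 difference relative to the chromosome median, nab2-1 minus wild type (x axes, ± SE, 3 arrays per group), of 30 further replication genes (left) and 39 G1 to S regulators and S phase genes (right), with genes ordered by their difference on the y axes and colours for the call at an adjusted p of 0.05. The left list runs from CTF18 at -0.69 to DNA2 at 0.71, and the right from CLB6 at -1.50 to HUG1 at 1.77.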

How the data were processed

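The table holds log2 signals of 10928 probe sets on 6 Affymetrix arrays, used as deposited; GCOS, RMA and limma are named, without versions or order, per the submitters' processing notes. Targets were biotin-labelled cRNA from 1 µg total RNA, per the labels' protocols. Probe sets were named through the platform annotation and the RefSeq gene table of S288C (R64); of 5498 with 1 yeast gene, the brightest per gene was kept. No detection calls or sequences were used, so the planned promoter motif search was not run. The number of arrays limits precision; the median SE of the DNA replication genes was 0.058. The test was limma's moderated one (version 3.58.1, R 4.3.3; two-sided, Benjamini-Hochberg over 5449 genes, threshold 0.05), as deposited and after subtracting each array's chromosome median. The test was checked on simulated data in which 200 of the 5449 genes were changed by a log2 difference of 0.5 or 1. It recovered 82% of the changes of 0.5 on both scales, and 97% and 98% of those of 1. Of 190 calls on each scale, 11 as deposited and 10 relative to chromosomes were false. The simulated noise was drawn independently for each gene and array. Smaller changes, and data in which as many genes change as here, were not simulated. The median size of the differences of the DNA replication genes was 0.33 as deposited, so the check does not cover many of their calls. The genes and lists were chosen with earlier results of these data known. Array values are given by rule for RNR1, the extremes of each role group and MCM4. Outside that rule they are also given for NAB2, POL30, RNR3, CLB6 and HUG1, and in nab2-1 only for ORC3. From each further list up to 4 genes with the largest chromosome-relative change were named, and others are said to be named after their values were seen. Figures used matplotlib 3.10.9.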

Additional observations from a re-analysis of the deposited data

How the results depend on the processing

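Quantile normalization, median centring, cyclic loess, trend with robust variances, array weights and the mean over probe sets kept the counts of DNA replication genes within 1.5 times those reported, as did leaving out the dimmest 25% of genes (37 of the 43 stayed in). CDC6 and MCM10 were among those left out, so that fit does not cover their falls. Scaling to the spiked controls left 7 lower, and ORC3, ORC5, RFA2 and POL30 turned to 0.084, 0.0069, 0.029 and 0.14, none past the threshold. That scaling cannot change the chromosome-relative values by construction. Among genes outside chromosomes I, XI and XVI, 1 was higher, since 6 genes are then not fitted. At an adjusted p of 0.01 the chromosome-relative counts were 12 lower and 3 higher. Leaving out 1 array gave 22 to 23 lower and 6 to 8 higher as deposited, and 15 to 19 lower and 4 to 9 higher relative to chromosomes. With the medians of the 20 nearest genes as the centre, chosen after seeing the data, 18 were lower and 6 higher. The replicate numbers share no stated origin, and same-numbered arrays deviated with correlations of -0.19, 0.19 and -0.14, so they were not taken as pairs. The correlation was 0.27 for nab2-1 replicate 1 with wild type replicate 3, and 0.22 for nab2-1 replicate 3 with wild type replicate 1. A matching of arrays under other numbers was not tested. With the given numbers as a replicate block 23 were lower and 6 higher as deposited, and 20 lower and 6 higher relative to chromosomes. With 3 arrays per group the SE of the 43 differences ran from 0.041 to 0.14.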
